A study of Mus musculus with 7 samples.

Results

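The miR-34 and miR-449 family was followed by small RNA sequencing in extracellular vesicles (small membrane particles shed by cells) isolated from fat of male C57BL/6J mice. Its 6 members were taken by name from the 1084 entries of the count table. They are mmu-miR-34a-5p, mmu-miR-34b-5p, mmu-miR-34b-3p, mmu-miR-34c-5p, mmu-miR-34c-3p and mmu-miR-449a-5p, where mmu stands for mouse and is left out from here on. The HFD group, fed a high-fat diet, had 3 libraries (HFD 1 to HFD 3), and the Chow group, fed chow, had 4 (Chow 1 to Chow 4); the study's text gives 12 weeks and the same strain and sex for both. The labels name neither the fat depot nor the number of animals behind a library, so each p-value reflects only library-to-library spread, part of which may be technical. The comparison asks whether the diet moved miR-34a, which is linked to obesity, and whether miR-34b, miR-34c and miR-449a, which are known from other cell types, moved with it.

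A mature microRNA (miRNA) guides the silencing machinery to messenger RNAs, mainly through pairing of its seed, bases 2 to 8 from the 5′ end. The hairpin precursor has a 5p and a 3p arm, and usually 1 of the arms is kept. miR-34a is made in many tissues, is switched on by the tumour suppressor p53 and represses the deacetylase Sirt1; in mice, raised miR-34a has been reported in obese fat. miR-34b and miR-34c come from a shared transcript and are abundant in cells with motile cilia and in male germ cells, and miR-449a is typical of the same cells. In mice, loss of both the miR-34b/c and miR-449 clusters impairs motile cilia and sperm production.

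The 5p members are printed because the family is defined by their common seed. The mature sequences are from RefSeq (GRCm38.p6), written 5′ to 3′ with the seed in capitals, and 5 of the 6 members were matched there by name. The unmatched member was miR-34c-5p, so its sequence is not printed and its seed is not in the counts of seeds below.
miR-34a-5p: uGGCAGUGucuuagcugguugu
miR-34b-5p: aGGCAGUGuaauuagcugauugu
miR-449a-5p: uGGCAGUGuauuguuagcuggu

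The 3p arms of miR-34b and miR-34c carry a different seed, which they share with each other, and are shown because these arms were counted at levels of their own.
miR-34b-3p: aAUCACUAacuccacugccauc
miR-34c-3p: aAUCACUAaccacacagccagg

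All 3 printed 5p members had the seed GGCAGUG, and both 3p members had AUCACUA. Of the 878 table entries with a RefSeq mature sequence, 4 had the first seed, the other being miR-449c-5p, and 2 had the second. Counted position by position from the 5′ end, miR-34a-5p and miR-449a-5p were identical at 15 of 22 positions and miR-34b-3p and miR-34c-3p at 17 of 22. The 5p arms of miR-34b and miR-34c are near-identical, and the number of mismatches allowed in the authors' mapping is not given in the sources used here, so the split of reads between them is uncertain. Mature miRNAs of this family differ little in length, so their counts were compared without a correction for length. How evenly the members were captured and copied was not measured, so ratios and shares between members are those of counts, not of molecules.

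The hairpins lie at 3 loci in GRCm38. The miR-34a hairpin is on chromosome 4 at 150068454 to 150068555 on the plus strand, where it partly overlaps an exon of Gm37795, a gene model of unsettled type in GENCODE M21. The miR-34c hairpin, at 51103034 to 51103110, and the miR-34b hairpin, at 51103562 to 51103645, lie on the minus strand of chromosome 9, 451 bases apart, inside an intron of the oppositely oriented gene Btg4. The miR-449a hairpin is on chromosome 13 at 113037534 to 113037624 on the plus strand, in an intron of Cdc20b, a gene of ciliated cells on the same strand.

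Total miRNA counts lay between 1825488 and 5941955 in the HFD libraries and between 48840 and 2294878 in the Chow libraries. Chow 3 (48840) and Chow 2 (180694) were the shallowest, and the authors' separate Chow table leaves the same 485 entries blank for both, entries which the combined table holds as 0. Among the members, miR-34b-5p and miR-449a-5p were blank in this way. A single count stood for 22.0 normalised CPM (counts as parts of an equalised library total, after TMM scaling, edgeR's correction for composition) in Chow 3, 4.70 in Chow 2 and between 0.155 and 0.664 in the other 5 libraries. A count of 0 allows up to 3 counts, or 66.1 normalised CPM in Chow 3 and 14.1 in Chow 2. Such limits, and the intervals of shares below, cover counting error only: the reads carry no molecular identifiers, and copies made by PCR are not separate molecules.

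The family was a small part of the vesicle miRNA counts, and miR-34c-5p made up most of the family's counts. The 6 members together held 0.107%, 0.0822% and 0.0502% of the counts of HFD 1 to HFD 3, against 0.0797%, 0.0387%, 0.0307% and 0.0576% in Chow 1 to Chow 4. The 2 ranges overlap. miR-148a-3p alone held 21.0% to 26.4% of counts in HFD and 39.7% to 58.0% in Chow. A share of all counts, here and for the lists below, therefore also depends on that difference. miR-34c-5p held 78.4% ± 2.69 of the members' counts in HFD (SD, n = 3) and 81.7% ± 5.67 in Chow (SD, n = 4). miR-34a-5p held 4.51% ± 0.914 in HFD and 2.54% ± 1.85 in Chow. In HFD 3, the deepest library, the exact binomial (Clopper-Pearson) 95% interval of the miR-34a-5p share was 4.37% to 5.98%. In Chow 2 and Chow 3 the shares rest on 70 and 15 counts of the family and are correspondingly imprecise.

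**Figure D1:**
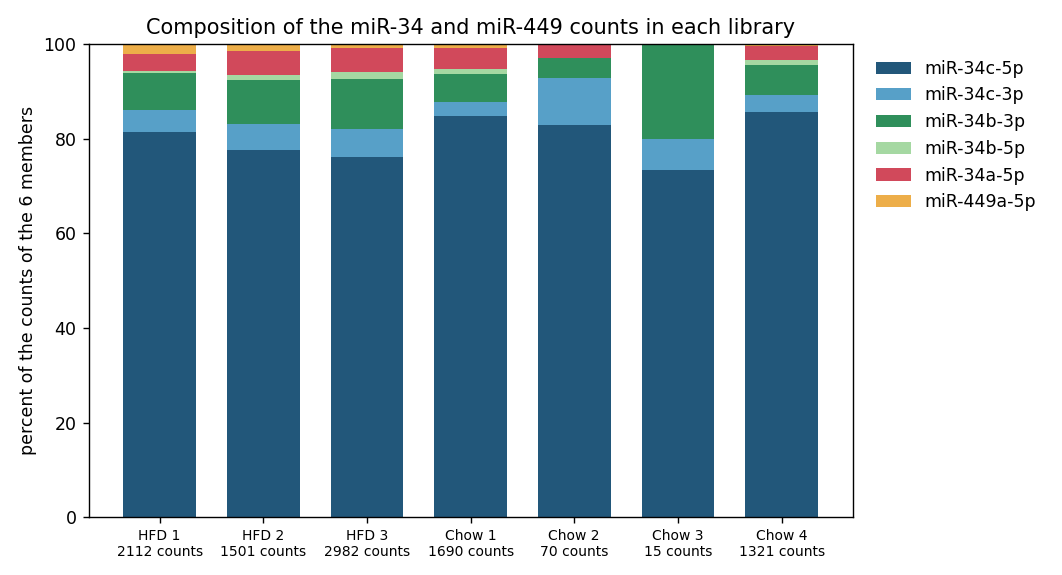
Share of each member (percent, stacked) in the counts of the 6 members, with 1 bar per library and the number of family counts under it, HFD on the left and Chow on the right. miR-34c-5p fills between 73.3% and 85.7% of every bar, and the Chow 2 and Chow 3 bars rest on 70 and 15 counts.

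The levels of the members had nearly the same order in both diets. On the scale of normalised CPM, the order by mean in HFD was miR-34c-5p, miR-34b-3p, miR-34c-3p, miR-34a-5p, miR-449a-5p and miR-34b-5p, and in Chow the last pair was the other way round. miR-34c-5p lay above miR-34b-3p in 3 of 3 HFD and 4 of 4 Chow libraries, with no overlap of their ranges. In HFD the ranges of miR-34c-3p and miR-34a-5p overlapped, as did those of miR-449a-5p and miR-34b-5p. In Chow, every neighbouring pair below miR-34c-5p overlapped. By rank among all entries of a library, miR-34c-5p stood at 67, 86 and 95 in HFD 1 to HFD 3 and at 56, 103, 107 and 83 in Chow 1 to Chow 4.

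Counts of miR-34c-5p were far above those of miR-34a-5p in vesicles of both diets. miR-34c-5p had 23.5, 15.7 and 14.8 times the counts of miR-34a-5p in HFD 1 to HFD 3. In Chow 1 and Chow 4 it had 19.1 and 29.8 times those counts, and Chow 2 had 58 counts of miR-34c-5p and 2 of miR-34a-5p. In Chow 3 there were 11 counts of miR-34c-5p and 0 of miR-34a-5p.

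In the test across all miRNAs, no family member passed. Of 385 miRNAs tested with edgeR's quasi-likelihood test, 2.86% passed the Benjamini-Hochberg adjusted threshold of 0.05, 2.08% higher and 0.779% lower in HFD, against 0 of 6 members in either direction. The number called over all miRNAs, 11, was 32 without Chow 1, 4 without Chow 2, 6 without Chow 3, 1 without Chow 4, 0 without HFD 2 (57 at an unadjusted p under 0.05) and 1 without HFD 3, and no member was among them. All 6 members passed the filter on low counts. No member passed in DESeq2, which called 13.0% of the tested miRNAs, or in limma-voom, which called 4.16% (2.86% higher and 1.30% lower in HFD). None of the 6 had normalised CPM that did not overlap between the diets, where 13.0% of the tested miRNAs were higher without overlap and 9.35% lower without overlap in HFD. At an unadjusted edgeR p under 0.05 there were 24.2% of the tested miRNAs and no member. The log2 fold change, HFD over Chow, was positive for 5 of the 6 members, with a median of 0.33, beside a positive value in 49.4% and a median of -0.02 over all tested miRNAs.

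**Figure D2:**
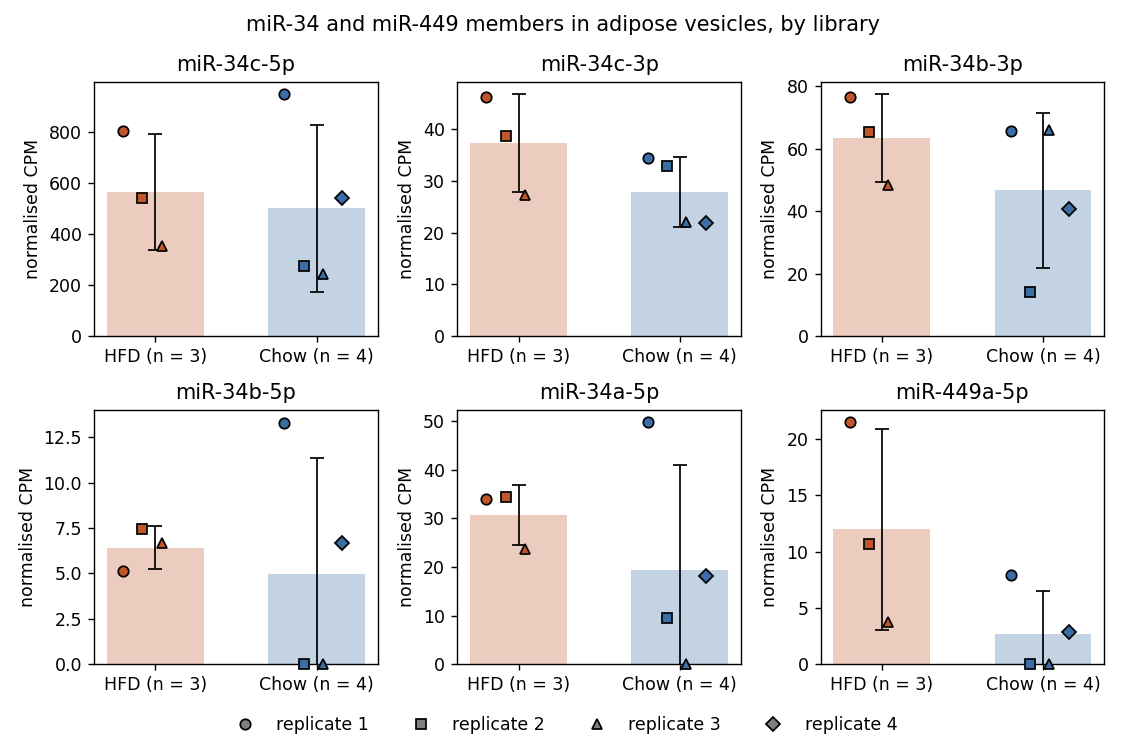
Normalised CPM of each member, 1 panel per member with its own axis from 0. Bars are means, whiskers SD (cut at 0), and symbols single libraries, 3 HFD on the left and 4 Chow on the right; in every panel the libraries of the diets overlap, and Chow 2 and Chow 3 stand at 0 for miR-34b-5p and miR-449a-5p.

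miR-34a-5p, the obesity-linked member, had 73, 74 and 153 counts in HFD 1 to HFD 3, against 75, 2, 0 and 38 in Chow 1 to Chow 4. These were 34.1, 34.5 and 23.7 normalised CPM in HFD, against 49.8, 9.40, 0 and 18.1 in Chow. Chow 1 had the highest measured value and the groups overlapped; the HFD libraries lay close together between Chow 1 and Chow 4. The 0 of Chow 3 allows 66.1 normalised CPM, more than any library had. The mean was 30.7 ± 6.13 in HFD (SD, n = 3) and 19.3 ± 21.6 in Chow (SD, n = 4), with a log2 fold change of 0.27 (SE 0.62, 95% interval -1.09 to 1.63, edgeR adjusted p = 0.828). The interval leaves room for a change of either sign, so a diet effect on miR-34a-5p was not detectable at this depth and spread. Without Chow 1 the log2 fold change was 1.14 (edgeR adjusted p = 0.251), and it was -0.14 without both Chow 2 and Chow 3 (edgeR adjusted p = 0.886); over all 19 alternative settings the adjusted p ran from 0.251 to 0.983. The other arm, miR-34a-3p, had 3 counts in HFD 3 and 1 in Chow 1 and none elsewhere, and was not tested.

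miR-34c-5p, the ciliated-cell and germ-cell member that led the family, had 1719, 1165 and 2272 counts in HFD 1 to HFD 3, against 1432, 58, 11 and 1132 in Chow 1 to Chow 4. In normalised CPM these were 803, 543 and 351 in HFD, against 950.4, 273, 242 and 539.9 in Chow. Chow 1 was again the highest library, Chow 2 and Chow 3 the lowest, and the groups overlapped. The mean was 566 ± 227 in HFD (SD, n = 3) and 501 ± 328 in Chow (SD, n = 4), with a log2 fold change of 0.14 (SE 0.53, 95% interval -1.02 to 1.31, edgeR adjusted p = 0.909). Its sign turned without Chow 2 (-0.07), without Chow 3 (-0.07), without both (-0.41) and without HFD 1 (-0.04), and it was 0.67 without Chow 1, with adjusted p-values between 0.407 and 0.986 over 19 alternatives.

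miR-34c-3p, the scarcer arm of that hairpin, had 46.2, 38.7 and 27.4 normalised CPM in HFD 1 to HFD 3, against 34.5, 32.9, 22.0 and 21.9 in Chow 1 to Chow 4. HFD 1 and HFD 2 were above every Chow library and HFD 3 was not. The log2 fold change was 0.38 (SE 0.49, 95% interval -0.68 to 1.44, edgeR adjusted p = 0.709). In Chow 3 the value rests on a single count.

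miR-34b-3p, the more abundant arm of its hairpin, had 76.6, 65.2 and 48.4 normalised CPM in HFD 1 to HFD 3, against 65.7, 14.1, 66.1 and 40.5 in Chow 1 to Chow 4. HFD 1 was the highest library and Chow 2 the lowest, and the groups overlapped. The Chow 2 and Chow 3 values rest on 3 counts each. The log2 fold change was 0.49 (SE 0.56, 95% interval -0.73 to 1.70, edgeR adjusted p = 0.674).

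miR-34b-5p was the least abundant member in HFD, with 11, 16 and 43 counts in HFD 1 to HFD 3, against 20 and 14 in Chow 1 and Chow 4 and blanks held as 0 in Chow 2 and Chow 3. These were 5.14, 7.45 and 6.65 normalised CPM in HFD and 13.3 and 6.68 in Chow 1 and Chow 4. Chow 1 was the highest, while all HFD values lay below the 14.1 and 66.1 normalised CPM that a 0 allows in Chow 2 and Chow 3, so those libraries carry no information on it. The log2 fold change was -0.31 (SE 0.65, 95% interval -1.71 to 1.10, edgeR adjusted p = 0.828), the only negative one of the 6, and turned positive with library size as the only scaling (0.14), which moved the median of all tested miRNAs to 0.31. It was also positive without Chow 1 (0.36), without HFD 1 (0.03) and with no filter on low counts (0.08). Without both Chow 2 and Chow 3 it was -0.62 (edgeR adjusted p = 0.532).

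miR-449a-5p, a miRNA of cells with motile cilia, had the greatest fold change of the 6. It had 46, 23 and 24 counts in HFD 1 to HFD 3, against 12 and 6 in Chow 1 and Chow 4 and blanks held as 0 in Chow 2 and Chow 3. In normalised CPM these were 21.5, 10.7 and 3.71 in HFD, against 7.96 and 2.86 in Chow 1 and Chow 4. HFD 1 and HFD 2 were above Chow 1 and Chow 4, and HFD 3 was between those. Chow 2 and Chow 3 cannot be placed: a 0 allows 14.1 normalised CPM in Chow 2, above HFD 2 and HFD 3, and 66.1 in Chow 3, above all 3 HFD libraries. The log2 fold change was 1.37 (SE 0.80, 95% interval -0.37 to 3.11, edgeR adjusted p = 0.318), with these blanks taken as 0. Without both Chow 2 and Chow 3 it was 1.13 (edgeR adjusted p = 0.470). It stayed positive in all 16 alternatives that tested it, from 0.83 without HFD 1 to 1.90. The adjusted p-values ran from 0.175 to 0.689, and DESeq2 gave none. Without Chow 1, and with a filter of at least 10 CPM in 3 libraries, miR-449a-5p did not pass the filter. It was also not tested in the authors' separate tables, where only entries without blanks were kept. Of the other entries of the miR-449 cluster, miR-449c-5p had 4 counts in HFD 1 and none elsewhere, and miR-449a-3p had 1 count in HFD 2 and none elsewhere.

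**Figure D3:**
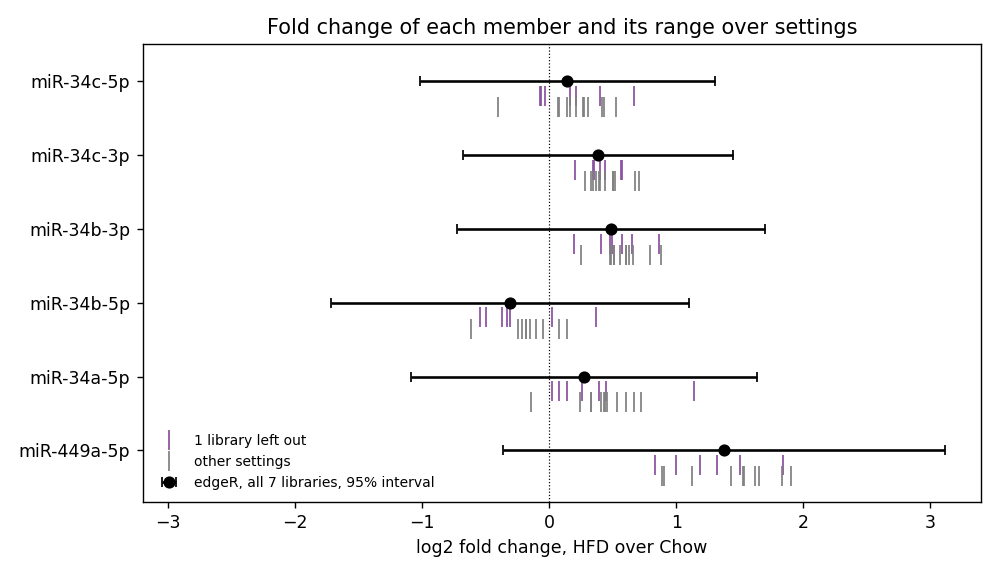
Log2 fold change, HFD over Chow, of each member in edgeR (point, with its 95% interval) and under other settings (ticks, purple where 1 library was left out and grey for other settings). Every interval crosses 0; the ticks of miR-449a-5p stay on the positive side, while those of miR-34c-5p, miR-34b-5p and miR-34a-5p lie on both sides.

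The balance of miR-34a against miR-34c was compared within libraries, where no scaling between libraries is needed. The log2 ratio of miR-34a-5p to miR-34c-5p counts, with 0.5 added to each, was -4.55, -3.97 and -3.89 in HFD 1 to HFD 3, against -4.25, -4.55, -4.52 and -4.88 in Chow 1 to Chow 4. With 0.5 added, HFD 2 and HFD 3 were above every Chow library and HFD 1 was not. The Chow 3 value came from 0 counts of miR-34a-5p beside 11 of miR-34c-5p. It is set by the added 0.5, so Chow 3 cannot be placed. The difference in means was 0.41. Its exact permutation p, two-sided, was 0.171 over 35 assignments, where 0.0286 is the smallest possible, and an adjusted p of 0.3 over 3 within-library measures. With 2 added to each count the difference was -0.20; Chow 2 and Chow 3 had 2 and 0 counts of miR-34a-5p, and without those libraries it was 0.43.

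Arm use differed between the hairpins and was compared between the diets. The 5p arm held 94.6%, 93.3% and 92.8% of miR-34c counts in HFD 1 to HFD 3, against 96.5%, 89.2%, 91.7% and 96.1% in Chow 1 to Chow 4. The Chow values enclosed those of HFD, and the difference in means of 0.187 percentage points had an exact two-sided permutation p of 0.943 (adjusted p = 0.943). Chow 1 and Chow 4 were above every HFD library, and Chow 2 and Chow 3 were below every HFD library. The Chow 2 and Chow 3 shares rest on 65 and 12 counts of both arms. Their exact binomial 95% intervals were 79.1% to 95.6% and 61.5% to 99.8%, so the small difference in means depends on imprecise shares. In miR-34b the preference was the opposite, and the 5p arm held 6.29%, 10.3% and 12.1% in HFD 1 to HFD 3, against 16.8% and 14.1% in Chow 1 and Chow 4, the only Chow libraries with at least 10 counts of the hairpin. These values did not overlap, and the difference in means was -5.93 percentage points. The exact two-sided permutation p was 0.2 and the adjusted p 0.3, and 10 assignments cannot give a p below 0.1. The exact binomial 95% intervals of neighbouring libraries overlapped, at 8.88% to 15.9% in HFD 3 and 7.95% to 22.6% in Chow 4. In these libraries miR-34b-5p had 11 to 43 counts, beside 1132 to 2272 of miR-34c-5p. The split of reads between these near-identical arms is uncertain, and so are the miR-34b arm shares and their difference.

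**Figure D4:**
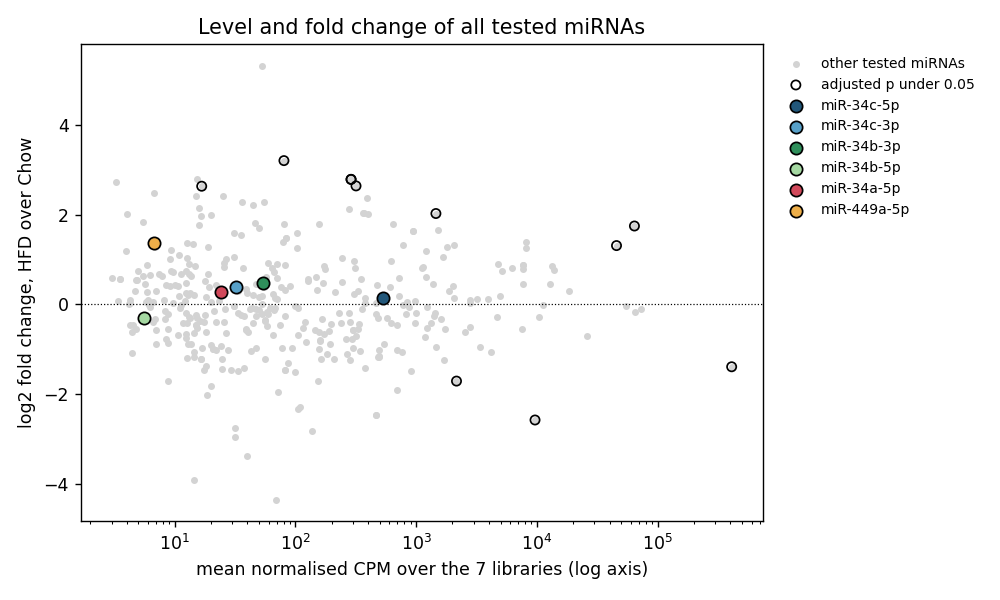
Mean normalised CPM over the 7 libraries (log axis) against the log2 fold change, HFD over Chow, for the 385 tested miRNAs. Family members are coloured and miRNAs past the adjusted threshold are circled; the 6 members lie between -0.31 and 1.37 and none is circled.

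Levels of the members were described across the 7 libraries by Pearson correlation of log2 normalised CPM, without a test, since the libraries share the differences in depth. miR-34c-5p had r = 0.87 with miR-449a-5p, 0.83 with miR-34b-5p, 0.79 with miR-34a-5p, 0.57 with miR-34c-3p and 0.52 with miR-34b-3p. In Chow 2 and Chow 3, the lowest libraries of miR-34c-5p, miR-449a-5p and miR-34b-5p were blanks held as 0. In those libraries miR-34a-5p had 2 and 0 counts. How far the r values between members rest on these libraries was not tested. miR-34a-5p had r = 0.12 with miR-34b-3p. Outside the family, the 5 miRNAs most like miR-34a-5p were miR-19b-3p, miR-98-3p, miR-106b-5p, miR-3068-5p and miR-369-3p, with r between 0.98 and 0.99. All 5 had 0 counts in Chow 3, as did miR-34a-5p, and without Chow 3 their r lay between 0.87 and 0.95. The 5 most like miR-34c-5p were miR-743a-5p, miR-362-3p, miR-329-5p, miR-186-5p and miR-218-5p, with r between 0.89 and 0.95, and between 0.84 and 0.95 without Chow 3.

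miRNAs of the cells in which miR-34b/c and miR-449a are known were set beside them. Of 26 listed testis and epididymis miRNAs, 25 were in the table and 18 were tested. None passed in edgeR or limma-voom, and 11 had an unadjusted edgeR p under 0.05, beside 24.2% of all tested miRNAs. In DESeq2 10 of the 18 rose and none fell, where 8.57% of all 385 miRNAs rose and 4.42% fell. The fold change was positive for 17, and the median of the list on the log2 scale was 1.75, beside -0.02 over all tested miRNAs. It was 1.24 without HFD 1 and 1.45 without Chow 2 and Chow 3, beside 0.099 and -0.13 over all tested miRNAs. The smallest p-values belonged to miR-202-5p (107 ± 116 normalised CPM in HFD, n = 3, and 12.8 ± 20.9 in Chow, n = 4, SD; log2 fold change 5.32, SE 1.31, edgeR adjusted p = 0.0510), a miRNA of the gonads, miR-470-5p (2.42), miR-883a-3p (2.80) and miR-743a-3p (1.98). The list summed to 4253, 2205 and 1030.4 normalised CPM in HFD 1 to HFD 3, against 1379, 404, 705 and 1006 in Chow 1 to Chow 4. HFD 1 was highest and HFD 3 lowest of the HFD libraries, as for miR-34c-5p, miR-34c-3p, miR-34b-3p and miR-449a-5p. The order was not particular to this list, since the p53-regulated list (25068, 21009 and 9870 normalised CPM in HFD 1 to HFD 3) and the striated muscle list (3816, 1434 and 181) had it too. The part of testis or epididymis RNA in the family's levels was not tested. The libraries detected between 24 and 25 of the 25 entries in HFD and between 8 and 24 in Chow.

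Epithelial miRNAs were listed as markers of another possible source. None of 12 tested passed in edgeR, DESeq2 or limma-voom. miR-183-5p alone had an unadjusted edgeR p under 0.05, beside 24.2% of all tested miRNAs. The fold change was positive for 1 of the 12, with a median of -0.44 on the log2 scale, beside -0.02 over all tested miRNAs. Without Chow 2 and Chow 3 none passed in edgeR and 7 had an unadjusted p under 0.05. In that setting 0 of 12 were positive and the median was -0.79. Of all 403 miRNAs tested there, 95 had an unadjusted p under 0.05, and the median was -0.13. The summed share of the epithelial list was 1.89% to 2.01% of counts in HFD and 1.77% to 2.48% in Chow. Its sums were 16957 to 18517 normalised CPM in HFD and 15042 to 34844 in Chow.

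miRNAs reported to be under p53, the regulator of miR-34a, had fold changes of both signs. Of 11 tested from 12 listed, none rose and 1 fell in edgeR, where 2.08% of all tested miRNAs rose and 0.779% fell. The 1 that fell was miR-143-3p, a miRNA that is also typical of smooth muscle. It had 2511 ± 928 normalised CPM in HFD (SD, n = 3) and 15006 ± 5237 in Chow (SD, n = 4). Its log2 fold change was -2.58 (edgeR adjusted p = 0.0224). The median log2 fold change of the list was 0.07, beside -0.02 over all tested miRNAs. Without Chow 2 and Chow 3 it was -0.55, beside -0.13 over all 403 tested in that setting. None of the list passed in edgeR there, and 4 had an unadjusted p under 0.05, where 95 of the 403 did. The other members with the smallest p-values were miR-145a-5p (-1.12), miR-16-5p (0.81) and miR-107-3p (-0.61).

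Other obesity-linked miRNAs of fat and its macrophages were set beside miR-34a-5p. Of 14 tested, 5 rose and none fell in edgeR, where 2.08% of all tested miRNAs rose. The 5 were miR-223-3p, miR-342-3p, miR-21a-5p, miR-142a-3p and miR-142a-5p. The median log2 fold change over the list was 1.11, beside -0.02 over all tested miRNAs. Without Chow 2 and Chow 3 none of the 14 passed in edgeR, 8 had an unadjusted p under 0.05 and the median was 1.15. Over all 403 miRNAs tested in that setting, 0 passed, 95 had an unadjusted p under 0.05 and the median was -0.13. With all libraries, 7 rose in DESeq2 and 5 in limma-voom, where 8.57% and 2.86% of all tested miRNAs rose. Whether their change differed from that of miR-34a-5p was not tested. Leukocyte miRNAs, with 4 of 10 tested rising and none falling (none without Chow 2 and Chow 3), held 1.34% to 2.57% of counts in HFD and 0.422% to 1.14% in Chow. The 4 that rose were the obesity-linked calls above other than miR-21a-5p, and they include both arms of miR-142a. The leukocyte calls are therefore not a separate set of rising miRNAs.

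Of the remaining marker lists, 1 of 4 endothelial (miR-126a-3p) and 1 of 9 stromal miRNAs (miR-143-3p) fell in edgeR and none rose. Over all tested miRNAs 0.779% fell and 2.08% rose. The medians of these lists were -0.16 and -0.29, beside -0.02 over all. Without Chow 2 and Chow 3 neither list had a call in edgeR, with 2 and 4 at an unadjusted p under 0.05. Over all 403 miRNAs tested in that setting, 95 had such a p and the median was -0.13. The endothelial and stromal medians were then -0.32 and -0.73. The endothelial call was also lost without HFD 1. None of 5 erythroid (median -0.43), 1 hepatocyte (-2.46) and 5 striated muscle miRNAs (0.63) passed in edgeR or limma-voom. At an unadjusted edgeR p under 0.05 there were 3, 1 and 0 of them, beside 24.2% of all tested miRNAs. The erythroid miRNAs had fold changes of both signs, with 2 of 5 positive. miR-144-5p (1.78) and miR-144-3p (1.10) were higher in HFD, and miR-486a-3p (-1.17) and miR-486a-5p (-1.16) were lower. DESeq2 called the hepatocyte miRNA lower, as it did 4.42% of all tested miRNAs. Without Chow 2 and Chow 3 the erythroid, hepatocyte and striated muscle medians were -0.27, -1.23 and 0.31. Without HFD 1 that of striated muscle was 0.24.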

How the data were processed

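The deposited values are raw read counts of mature miRNAs, per the file headers; Chow and HFD each have a table, and a combined one holds 7 libraries. Bowtie is named in the submitters' processing notes. No source used here gives its version, the genome build, the miRNA annotation or filters. Tests read the combined table unchanged.

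Tests used edgeR 4.0.16 in R 4.3.3: quasi-likelihood F test, TMM scaling, filterByExpr, diet as the only term, all 7 libraries, adjusted over all tested miRNAs at 0.05. SE values derive from the F statistic, and intervals use the fit's residual degrees of freedom. Log2 CPM for correlations used a prior count of 2. Within-library ratios and shares used exact permutation of libraries. Alternatives were other scalings and filters, DESeq2 1.42.0, limma-voom (limma 3.58.1), omission of libraries, a replicate term and the separate tables. The edgeR, limma-voom and DESeq2 code was tested on simulated counts, and the permutation code on made-up values, either separated or equal. What was recovered is not given here. Members and lists were chosen with earlier results of these data known. Named miRNAs are the family entries, list members past the threshold or with the 4 smallest p-values (a subset is printed), and the 5 most correlated with miR-34a-5p and miR-34c-5p.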

Additional observations from a re-analysis of the deposited data

How the results depend on the processing

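No member passed the adjusted threshold under any alternative, among 19 settings for miR-34a-5p, miR-34b-3p, miR-34c-5p and miR-34c-3p, 17 for miR-34b-5p and 16 for miR-449a-5p. The log2 fold change kept its sign in all of them for miR-34b-3p (0.19 to 0.88), miR-34c-3p (0.21 to 0.70) and miR-449a-5p (0.83 to 1.90). DESeq2 gave no adjusted p for miR-34b-5p and miR-449a-5p. Signs turned for miR-34a-5p without Chow 2 and Chow 3 (-0.14), for miR-34c-5p without both (-0.41), without 1 of Chow 2, Chow 3 or HFD 1 (-0.073, -0.065 and -0.037), and for miR-34b-5p with library size only (0.14), no filter (0.077), without Chow 1 (0.36) or without HFD 1 (0.03). Leave-one-out ranges were 0.02 to 1.14 for miR-34a-5p, -0.54 to 0.36 for miR-34b-5p and -0.073 to 0.67 for miR-34c-5p. The number of miRNAs called, 11 of 385, was 18 with RLE size factors, 39 with library size only, 62 with no filter, 50 in DESeq2, 19 in limma-voom with sample weights and 0 without Chow 2 and Chow 3 (95 at an unadjusted p under 0.05), and ranged from 0 to 32 with 1 library left out. The median log2 fold change of all tested miRNAs, -0.02, was 0.088 with RLE, 0.13 with TMMwsp and 0.31 with library size only. The log2 ratio of miR-34a-5p to miR-34c-5p differed by -0.20 with 2 added to each count and by 0.29 to 0.62 with 1 library left out. The 5p share of miR-34c differed by -0.382 percentage points with at least 30 counts, by -1.19 to 1.23 with 1 library left out, and that of miR-34b by -7.27 to -4.31. The cause of these shifts was not tested.

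Replicate numbers pair nothing in the labels. Deviations from the group means correlated by 0.07, -0.16 and 0.04 in the 3 same-numbered pairs. With replicate number as a block, 23 miRNAs passed and no family member did. Averaged over same-numbered pairs, the miR-34a to miR-34c log2 ratio differed by 0.30 and the miR-34c 5p share by 1.09 percentage points, settings added after the data were seen.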

Other observations

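The balance of miR-449a against miR-34c was looked at after the values were seen, and is given without a test. miR-34c-5p had 37.4, 50.7 and 94.7 times the counts of miR-449a-5p in HFD 1 to HFD 3, against 119 and 189 times in Chow 1 and Chow 4. Of the counts of the 6 members, miR-449a-5p held 2.18%, 1.53% and 0.805% in HFD 1 to HFD 3, against 0.710% and 0.454% in Chow 1 and Chow 4. Every HFD share was above both Chow shares, but the exact binomial 95% intervals overlapped for HFD 2 and HFD 3. Those of HFD 2 (0.974% to 2.29%) and HFD 3 (0.516% to 1.20%) each overlapped those of Chow 1 (0.367% to 1.24%) and Chow 4 (0.167% to 0.986%). Only the interval of HFD 1 (1.60% to 2.89%) lay above both. Chow 2 and Chow 3 had 0 of 70 and 0 of 15 counts, which allow shares of up to 4.29% and 20.0% and so do not bear on the difference.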
